A study of Mus musculus with 24 samples.

Results

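The 10 genes described here take part in the recycling of heme and iron by spleen macrophages: Hmox1, Blvrb, Cd163, Slc40a1, Fth1, Tfrc, Slc11a1, Slc11a2, Spic, and Vcam1. They were picked by gene name, as a set with known roles in that process, and all 10 were among the 23930 genes of the expression table. Every one of the 24 libraries was used.

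Ly6Chi and Ly6Clow cells were sorted from the spleens of untreated mice of 3 genotypes, WT, Slc29a3-/-, and Slc29a3-/- Tlr7-/-, and their RNA was sequenced in 6 groups of 4 libraries. SLC29A3 moves nucleosides out of the lysosome, and TLR7 is an endosomal sensor of RNA and guanosine. The sorted cells were CD11b+ and negative for Ly6G, NK1.1, and, by the labels, SiglecF. The labels call them macrophages and the study calls them monocytes. All mice were C57BL/6. WT mice were bought from a breeder, whereas both mutants were made by CRISPR editing and bred in house, so the origin of the mice and the genotype cannot be told apart. The Slc29a3 allele carries stop codons inserted in the second exon, and the Tlr7 allele a short deletion. There was no Tlr7-/- group with intact Slc29a3, and the age and sex of the mice are not given in the sources used here. Each value is the reads of 1 short amplicon per gene, scaled to 1000000 reads per library (RPM). Levels are therefore compared between groups and never between genes. Because each library pools many sorted cells, fewer cells of a type and less RNA per cell cannot be told apart.

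Macrophages of the splenic red pulp engulf worn red blood cells and return their iron to the blood. CD163 takes up hemoglobin bound to haptoglobin. Heme oxygenase 1, the product of Hmox1, opens the heme ring and frees the iron, and biliverdin reductase B, the product of Blvrb, reduces biliverdin and flavins. Iron leaves phagosomes and endosomes through NRAMP1 (Slc11a1) and DMT1 (Slc11a2), is stored in ferritin, whose heavy chain is encoded by Fth1, and leaves the cell through ferroportin (Slc40a1). The transferrin receptor (Tfrc) brings iron into the cell and is high in dividing cells and in erythroblasts. SPI-C (Spic) is a transcription factor needed for red pulp macrophages, and it is induced by heme through loss of the repressor BACH1. VCAM1 is an adhesion molecule of the same cells.

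The messages of several of these genes carry iron-responsive elements, hairpins that are bound by iron regulatory proteins when iron is scarce. As background, such a hairpin in the 5′ UTR blocks translation and the hairpins in the 3′ UTR of Tfrc protect the message from decay, so that iron acts on the message level of Tfrc and on the translation of Fth1 and Slc40a1. The sequences are shown for the members in which a search found such a site. A search of annotated UTRs on the transcript strand looked for a C, 5 stem bases, the loop CAGTGN, and 5 bases that pair with the stem, with G-T pairs allowed. It found a match in the 5′ UTR of 31 of 20899 genes (0.148%) and in the 3′ UTR of 129 of 21685 genes (0.595%). Among the members, Fth1 and Slc40a1 had 1 match each in the 5′ UTR and Tfrc had 4 in the 3′ UTR. The other 7 had none with these letters. The search allowed no unpaired base among the 5 stem bases, so a gene without a match may still carry an element. The sites are given 5′ to 3′ on mm10, with the loop in capitals and 6 flanking bases at each end.
Fth1 5′ UTR, chr19:9982732-9982760, plus strand: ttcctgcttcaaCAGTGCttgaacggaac
Slc40a1 5′ UTR, chr1:45925465-45925493, minus strand: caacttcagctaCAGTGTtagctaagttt
Tfrc 3′ UTR site 1, chr16:32631219-32631247, plus strand: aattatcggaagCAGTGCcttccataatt
Tfrc 3′ UTR site 2, chr16:32631598-32631626, plus strand: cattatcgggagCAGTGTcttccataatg
Tfrc 3′ UTR site 3, chr16:32631663-32631691, plus strand: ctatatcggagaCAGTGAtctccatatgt
Tfrc 3′ UTR site 4, chr16:32631710-32631738, plus strand: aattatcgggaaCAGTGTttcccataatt

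By the mm10 annotation all 10 are protein-coding genes. Hmox1 lies at chr8:75093621-75100589, Blvrb at chr7:27447978-27466144, Cd163 at chr6:124304656-124330527, Slc40a1 at chr1:45908068-45926523, and Fth1 at chr19:9980598-9985098. Tfrc lies at chr16:32608920-32632794, Slc11a1 at chr1:74375195-74386062, Slc11a2 at chr15:100387898-100425072, Spic at chr10:88674772-88685015, and Vcam1 at chr3:116109949-116129688. Where in each gene the amplicon sits is not given in the sources used here.

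The targeted genes did not check the labels. Slc29a3 read 163 to 225 RPM in WT Ly6Chi, 127 to 173 in Slc29a3-/- Ly6Chi, and 194 to 413 in Slc29a3-/- Tlr7-/- Ly6Chi, and 40.7 to 74.1 in all Ly6Clow libraries. Tlr7 read 259 to 345 RPM in Slc29a3-/- Tlr7-/- Ly6Chi against 210 to 336 in WT, and 355 to 627 against 298 to 479 in Ly6Clow. An amplicon outside the edited stretch is still read from a mutant transcript, so these levels say nothing of the protein. Depth, inferred from the step between low values, was 12311031 to 14572210 reads a library, and 3 reads correspond to 0.206 to 0.244 RPM. Some libraries stand apart. WT replicates 1 to 3 carried barcodes 11 to 16, whereas WT replicate 4 and all mutants carried later ones. Of the WT libraries, replicate 4 was in each subset the only one to read the Y-linked Ddx3y and not Xist, so that barcode and sex cannot be told apart there, and Slc29a3-/- replicate 1 was likewise the only such library of its group in both subsets. Over all libraries 14 read Xist alone and 7 Ddx3y alone, each above 10 RPM. Slc29a3-/- Tlr7-/- Ly6Chi replicates 2 and 3 and Ly6Clow replicate 2 read both Xist, transcribed in female cells, and Ddx3y. Members' results that rest on WT replicates 1 to 3 or on libraries reading both genes are also given without them, as are the changes of other genes that these libraries moved most.

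Differences were tested with limma on log2(RPM + 1) over all genes that reached 1 RPM in 4 or more libraries of the fit, and a gene was called at a Benjamini-Hochberg adjusted P under 0.05. Fold changes are on that scale, which understates the change of low genes. Of the 10 members, 9 passed the filter in every comparison and Fth1 in none. Which libraries came from the same mouse is not given, and p-values measure the spread between these libraries, which may be technical. By the median chi-square of read counts over chance, WT Ly6Chi replicates 1 to 3 differed 4.4 to 5.1 times from each other. Their ratios with WT replicate 4 were 24.5 to 27.1. In WT Ly6Clow these ratios were 7.5 to 16.6 and 57.1 to 71.8, and pairs within mutant groups ran from 6.3 to 109.0. If WT replicates 1 to 3 were not separate mice, p-values against WT are too small.

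**Figure D1:**
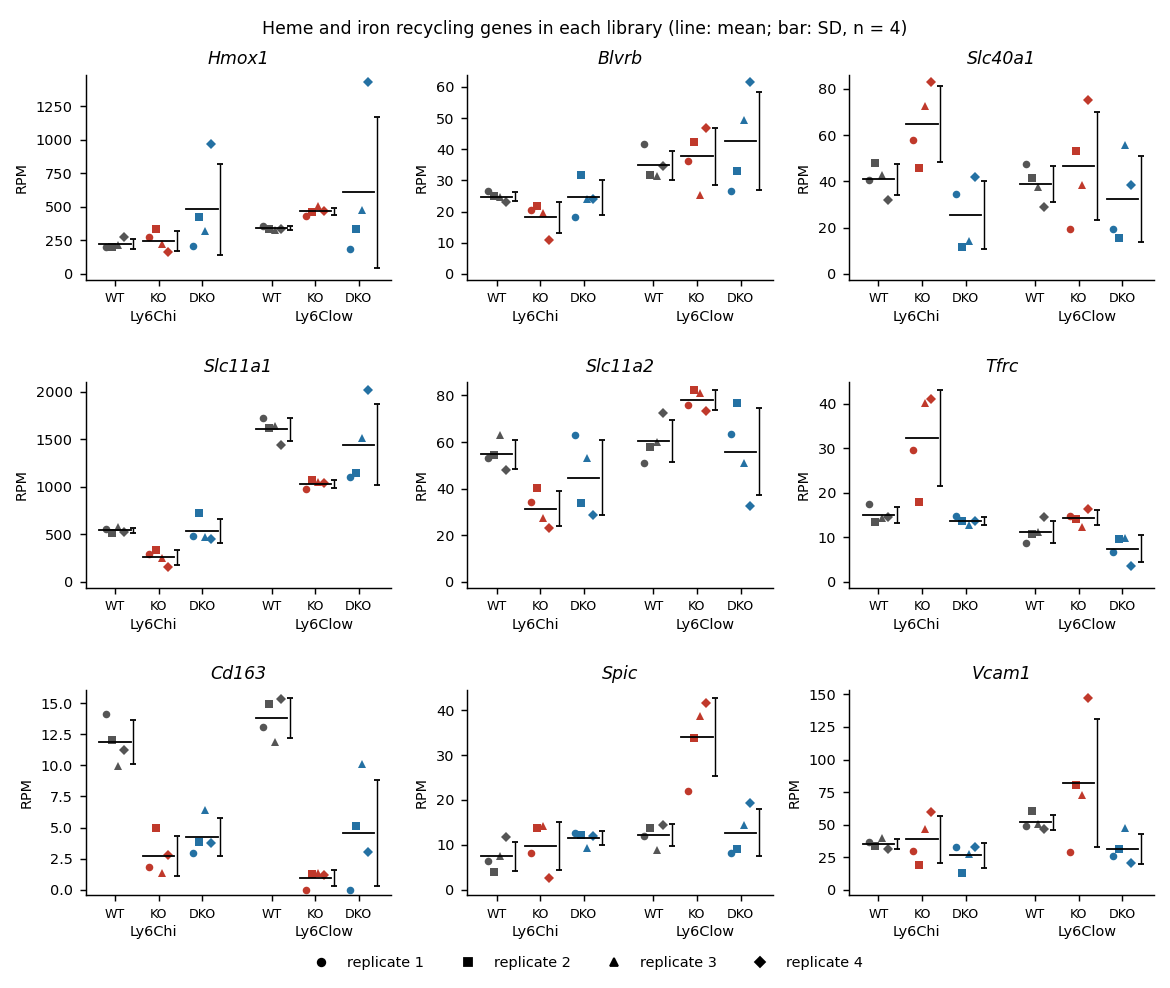
RPM (vertical axis, linear, from 0) of the 9 tested members in each of the 24 libraries, with the mean as a line and the SD (n = 4) as a bar; WT is grey, Slc29a3-/- (KO) red, Slc29a3-/- Tlr7-/- (DKO) blue, and marker shape gives the replicate. Cd163 sits at 9.94 to 15.3 RPM in all 8 WT libraries, Tfrc reaches 41.1 RPM in Slc29a3-/- Ly6Chi cells, and Spic reaches 41.7 RPM in Slc29a3-/- Ly6Clow cells.

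In Ly6Chi cells, loss of Slc29a3 went with higher Tfrc and lower Cd163, Slc11a1, and Slc11a2. Of the 9 members tested, 1 was higher and 3 were lower in Slc29a3-/- than in WT, against 27.9% of all 10561 genes tested in that comparison. The median log2 fold change of the members was 0.005 and that of all genes was -0.14. With Tlr7 also lost, only Cd163 differed from WT, where it was lower, against 1.46% of all genes. Between Slc29a3-/- and Slc29a3-/- Tlr7-/-, Slc40a1 and Tfrc were higher and Slc11a1 was lower in Slc29a3-/-, against 20.4% of all genes. The medians in these 2 comparisons were -0.12 for the members and -0.06 for all genes, and -0.43 for the members and -0.12 for all genes.

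In Ly6Clow cells, Spic was the member that rose. It was higher and Cd163 was lower in Slc29a3-/- than in WT, 2 of 9 members against 4.64% of all 10317 genes tested. Cd163 alone was lower in Slc29a3-/- Tlr7-/- than in WT, against 8.87% of all genes. Spic alone was higher in Slc29a3-/- than in Slc29a3-/- Tlr7-/-, against 1.93% of all genes. Medians of the members were 0.34, -0.19, and 0.54 in these comparisons, and those of all genes 0.002, -0.10, and 0.08. The 3 comparisons of a subset share their libraries, so their results are not independent of each other.

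**Figure D2:**
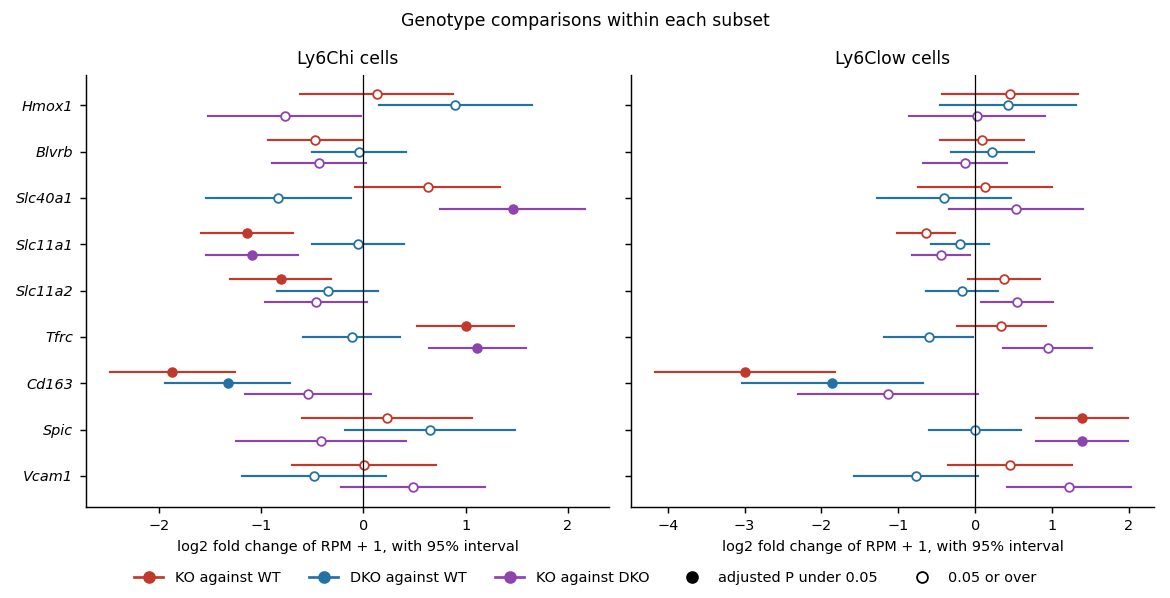
Log2 fold change of RPM + 1 (horizontal axis, with 95% interval) of each tested member in the 3 genotype comparisons of Ly6Chi and Ly6Clow cells; KO is Slc29a3-/-, DKO is Slc29a3-/- Tlr7-/-, and filled points passed an adjusted P of 0.05. Cd163 lies below 0 in every comparison with WT, and Spic in Ly6Clow cells is at 1.39 against both WT and Slc29a3-/- Tlr7-/-.

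Among the 10 members, Cd163 had the widest change between genotypes. Cd163, the hemoglobin-haptoglobin receptor, read 14.2, 12.1, 9.94, and 11.2 RPM in WT Ly6Chi replicates 1 to 4, 1.83, 4.98, 1.35, and 2.78 in Slc29a3-/-, and 2.93, 3.82, 6.42, and 3.77 in Slc29a3-/- Tlr7-/-. In Ly6Clow cells Cd163 read 13.1, 14.96, 11.9, and 15.3 RPM in WT, 0, 1.28, 1.34, and 1.19 in Slc29a3-/-, and 0, 5.08, 10.1, and 3.04 in Slc29a3-/- Tlr7-/-. Every mutant library was below every WT library of its subset, and Slc29a3-/- Tlr7-/- Ly6Clow replicate 3, at 10.1 RPM, was the only mutant library to reach the range of WT Ly6Chi cells. A value of 0 allows up to 3 reads, a level of 0.206 to 0.244 RPM.

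In Slc29a3-/- cells Cd163 was lower, with a log2 change of -1.87 in Ly6Chi (SE 0.29, adjusted P = 6.1e-04, 0.274 of the WT level) and of -2.99 in Ly6Clow (SE 0.55, adjusted P = 0.0070, 0.126 of the WT level). Leaving out any 1 library kept both calls, although a pseudocount of 0.1 ended the second (-4.28, adjusted P = 0.063). In Slc29a3-/- Tlr7-/- cells the log2 change of Cd163 was -1.33 in Ly6Chi (SE 0.29, adjusted P = 0.043) and -1.86 in Ly6Clow (SE 0.55, adjusted P = 0.049). These calls were lost, with changes of -1.24 to -1.51, without WT Ly6Chi replicate 1, 2, or 3 (adjusted P 0.182, 0.186, and 0.159) or Slc29a3-/- Tlr7-/- Ly6Chi replicate 2, 3, or 4 (0.086, 0.080, and 0.077), and, with changes of -1.81 to -1.92, without any 1 WT Ly6Clow library (0.106, 0.131, 0.109, and 0.057) or Slc29a3-/- Tlr7-/- Ly6Clow replicate 4 (0.075). The size of the Ly6Clow change rested on the library at 0, being -1.19 without Slc29a3-/- Tlr7-/- replicate 1 (adjusted P = 0.047) and -2.34 without replicate 3 (adjusted P = 0.039). Cd163 did not pass the test between the mutants (Ly6Chi -0.54, 95% interval -1.15 to 0.08; Ly6Clow -1.14, interval -2.31 to 0.04). Without Slc29a3-/- Tlr7-/- Ly6Clow replicate 1, one of the libraries at 0, the second became -1.81 (adjusted P = 0.019), and without Slc29a3-/- Ly6Chi replicate 2 the first became -0.80 (adjusted P = 0.046).

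Mrc1, the mannose receptor, which tissue macrophages also carry, was lower with Cd163 in Slc29a3-/- Ly6Chi (-1.73) and Ly6Clow cells (-2.22). With WT replicate 4 alone for WT these were -1.14 and -1.85 and did not pass. Hp, which encodes the haptoglobin that CD163 binds with hemoglobin, was higher in Slc29a3-/- than in WT Ly6Chi cells (474 ± 54.0 RPM in WT and 973 ± 126 in Slc29a3-/-, SD, n = 4, log2 change 1.03, adjusted P = 7.9e-04). Of the 6 tested genes of heme uptake, transport, and breakdown that are not members, Hp rose and Lrp1 (-0.82), which takes up heme bound to hemopexin, and Abcg2 (-0.58), which exports heme and porphyrins, fell in that comparison, Abcg2 with a call that was lost without any 1 of 6 libraries. Lrp1 was also lower in Slc29a3-/- than in the double mutant (-1.03). Hp read 513 to 919 RPM in double mutant Ly6Chi cells, and limma called it there neither against WT nor against Slc29a3-/-. In Ly6Clow cells limma called 0 of the 6 in all 3 genotype comparisons, where 3, 2, and 2 had an unadjusted P under 0.05.

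Heme breakdown genes were not called between genotypes. Hmox1 read 198, 198, 213, and 275 RPM in WT Ly6Chi, 272, 335, 225, and 161 in Slc29a3-/-, and 210, 425, 322, and 971 in Slc29a3-/- Tlr7-/-. In Ly6Clow cells Hmox1 read 362, 338, 328, and 332 RPM in WT, 436, 460, 504, and 467 in Slc29a3-/-, and 190, 335, 480, and 1431 in Slc29a3-/- Tlr7-/-. The 4 Slc29a3-/- Ly6Clow libraries were all above the 4 WT ones, and the double mutant held both the lowest and the highest Ly6Clow value. On the log2 scale Hmox1 differed from WT by 0.45 in Slc29a3-/- Ly6Clow (95% interval -0.43 to 1.34, adjusted P = 0.587), in a fit that pools the wide spread of the double mutant. It differed from WT by 0.90 in Slc29a3-/- Tlr7-/- Ly6Chi (interval 0.15 to 1.65, adjusted P = 0.149). Without Slc29a3-/- Tlr7-/- Ly6Chi replicate 1, the lowest of its group, that value became 1.22 (adjusted P = 0.039), and Slc29a3-/- differed from the double mutant by -1.09 (adjusted P = 0.028) in place of -0.77 (adjusted P = 0.138).

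Replicate 4 of the double mutant had the most Hmox1 in both subsets and also the most of the heat shock genes Hspa1a and Hsph1. These and Hspa1b were looked at after their values were seen. Hspa1a read 12.5, 244, 120, and 889 RPM in Slc29a3-/- Tlr7-/- Ly6Chi replicates 1 to 4 and 11.1, 365, 13.7, and 2342 in Ly6Clow, against 4.45 to 48.8 in the other 16 libraries. Hspa1b, a near-identical copy, was highest in replicate 4 in Ly6Chi (869 RPM) but in replicate 2 in Ly6Clow (649.97 RPM, with replicate 4 at 269.8). Hsph1 was at 499.9 RPM in Ly6Chi replicate 4 and 461 in Ly6Clow replicate 4 of the double mutant. Hmox1 is itself induced by heat and oxidative stress, and the part of these genes in its level was not tested.

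Blvrb read 26.5, 24.98, 24.7, and 23.2 RPM in WT Ly6Chi, 20.5, 21.8, 19.5, and 10.9 in Slc29a3-/-, and 18.4, 31.8, 24.1, and 23.97 in Slc29a3-/- Tlr7-/-. Its Ly6Clow values were 41.6, 31.8, 31.3, and 34.6 RPM in WT, 36.2, 42.4, 25.5, and 46.7 in Slc29a3-/-, and 26.7, 32.96, 49.2, and 61.5 in Slc29a3-/- Tlr7-/-. All Slc29a3-/- Ly6Chi libraries were below all WT ones, but the change of -0.47 (95% interval -0.93 to -0.01) did not pass the test (adjusted P = 0.115). In Ly6Clow cells the genotypes overlapped, and Slc29a3-/- differed from WT by 0.09 (interval -0.46 to 0.63).

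Of the regulators that respond to heme and oxidative stress, 10 were tested. In Slc29a3-/- Ly6Chi cells Nfe2l2, which encodes NRF2, an activator of Hmox1, rose from 69.0 ± 17.1 RPM in WT to 125 ± 33.5 (SD, n = 4, log2 change 0.84). WT replicate 4, at 94.4 RPM, lay within the range of Slc29a3-/-, and against it alone the change was 0.36 and did not pass. In the double mutant Nfe2l2 read 97.1 to 134 RPM, and it differed from WT by 0.81 (adjusted P = 0.062). Of 5 targets of NRF2 on the list, Gclm (0.77) and Txnrd1 (0.58) rose, and Nqo1 (0.22), Srxn1 (-0.26), and Slc7a11 (-0.53) did not pass. Mafk, a partner of both NRF2 and BACH1, was lower (-1.38), with 76.3 to 92.4 RPM in WT replicates 1 to 3, 27.4 in WT replicate 4, and 21.3 to 25.8 in Slc29a3-/-, so that against WT replicate 4 alone the change was -0.18 (adjusted P = 0.804). Gclm (0.72) and Txnrd1 (0.71) were also higher in Slc29a3-/- than in Slc29a3-/- Tlr7-/- Ly6Chi cells, and without the libraries reading both Xist and Ddx3y Txnrd1 stayed called (0.88) and Gclm did not (0.71, adjusted P = 0.052). In Ly6Clow cells 1 of the 10 was called in Slc29a3-/- against WT, Bach1, a heme-sensing repressor of Hmox1 and Spic. Bach1 was at 137 ± 29.3 RPM in WT and 204 ± 8.10 in Slc29a3-/- (log2 change 0.59, adjusted P = 0.036), a call that was lost without any 1 of 7 libraries and with WT replicate 4 alone for WT (0.21). In the double mutant against WT, limma called 0 of 10 in both subsets, where 6 in Ly6Chi and 4 in Ly6Clow had an unadjusted P under 0.05.

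The iron exporter and the iron importer were both higher in Slc29a3-/- Ly6Chi cells than in the double mutant. Slc40a1, the only known cellular iron exporter, read 40.6, 48.1, 42.9, and 31.9 RPM in WT Ly6Chi, 57.9, 45.7, 72.5, and 82.8 in Slc29a3-/-, and 34.4, 11.7, 14.3, and 41.8 in Slc29a3-/- Tlr7-/-. Its Ly6Clow values were 47.3, 41.5, 37.4, and 28.7 RPM in WT, 19.6, 53.2, 38.6, and 75.2 in Slc29a3-/-, and 19.3, 15.7, 55.9, and 38.4 in Slc29a3-/- Tlr7-/-. Each Slc29a3-/- Ly6Chi library was above each double mutant one, by 1.46 on the log2 scale (SE 0.33, adjusted P = 0.0069, 2.75-fold), whereas the Ly6Clow groups all overlapped. Of the double mutant Ly6Chi libraries, replicates 2 and 3 were the lowest and are those that read both Xist and Ddx3y. Without both, the difference was 0.72 and no longer passed (adjusted P = 0.059). Neither mutant passed against WT (0.63 for Slc29a3-/-, interval -0.08 to 1.34, and -0.83 for the double mutant, interval -1.54 to -0.12, adjusted P = 0.156).

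Tfrc read 17.5, 13.4, 14.4, and 14.5 RPM in WT Ly6Chi, 29.7, 18.0, 40.1, and 41.1 in Slc29a3-/-, and 14.7, 13.6, 12.8, and 13.6 in Slc29a3-/- Tlr7-/-. In Ly6Clow cells Tfrc read 8.67, 10.6, 11.2, and 14.6 RPM in WT, 14.7, 14, 12.4, and 16.4 in Slc29a3-/-, and 6.62, 9.69, 9.94, and 3.52 in Slc29a3-/- Tlr7-/-. All 4 Slc29a3-/- Ly6Chi libraries were above the other 8 of the subset, with replicate 2, at 18.0 RPM, close to the highest WT library. Tfrc rose by 1.00 against WT (SE 0.22, adjusted P = 0.0049, 1.999-fold) and by 1.11 against the double mutant (SE 0.22, adjusted P = 0.0031, 2.17-fold). The first call held without any 1 library (highest adjusted P 0.020) and the second also without the libraries that read both Xist and Ddx3y (1.07, adjusted P = 0.027). In Ly6Clow cells Slc29a3-/- exceeded the double mutant with no overlap, by 0.94 (interval 0.36 to 1.52), which did not pass (adjusted P = 0.102). Without double mutant Ly6Clow replicate 2, which reads both sex-linked genes, it was 1.08 (adjusted P = 0.048).

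Genes of cell division and of neutrophils moved with Tfrc in Ly6Chi cells. All 6 proliferation genes tested were higher in Slc29a3-/- than in WT (Cdk1 1.65, Mcm2 1.45, and Top2a 1.44) and than in the double mutant (Rrm2 2.06, Mki67 2.01, and Mcm2 1.80). Their summed level was 386 to 592 RPM in WT, 1056 to 1810.3 in Slc29a3-/-, and 267 to 517 in Slc29a3-/- Tlr7-/-. Of the 10 neutrophil markers, which include granule genes that myeloid precursors also express, 8 were higher and 1 was lower than in WT, and 9 were higher and 1 was lower than in the double mutant. Without the libraries reading both Xist and Ddx3y the same comparison with the double mutant called 6 of 6 proliferation genes and 9 of 10 neutrophil markers, all higher, and with WT replicate 4 alone for WT the called genes of both lists kept their direction, with 4 proliferation genes and 0 neutrophil markers called. The neutrophil sum was 24847 to 33739 RPM in WT, 76683 to 141819 in Slc29a3-/-, and 13542 to 40691 in Slc29a3-/- Tlr7-/-, although the sort excluded Ly6G+ cells, and Ly6g itself, a defining marker, read 17.9 to 33.5, 59.2 to 139, and 2.77 to 39.8 RPM. The erythroid marker Slc4a1 was at 2.45 RPM or less in these Ly6Chi libraries. The sum of the erythroid list was 21.8 to 112 RPM in WT, 8.72 to 14.4 in Slc29a3-/-, and 15.6 to 39.5 in Slc29a3-/- Tlr7-/-, with 0 of 4 tested markers higher and 3 lower in Slc29a3-/- than in WT. Car1 made up most of each sum, at 18.6 to 103 RPM in WT, 6.11 to 8.84 in Slc29a3-/-, and 14.3 to 36.5 in Slc29a3-/- Tlr7-/-. The part of dividing cells, of myeloid precursors, and of red cell precursors in the level of Tfrc and the other members was not tested.

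**Figure D3:**
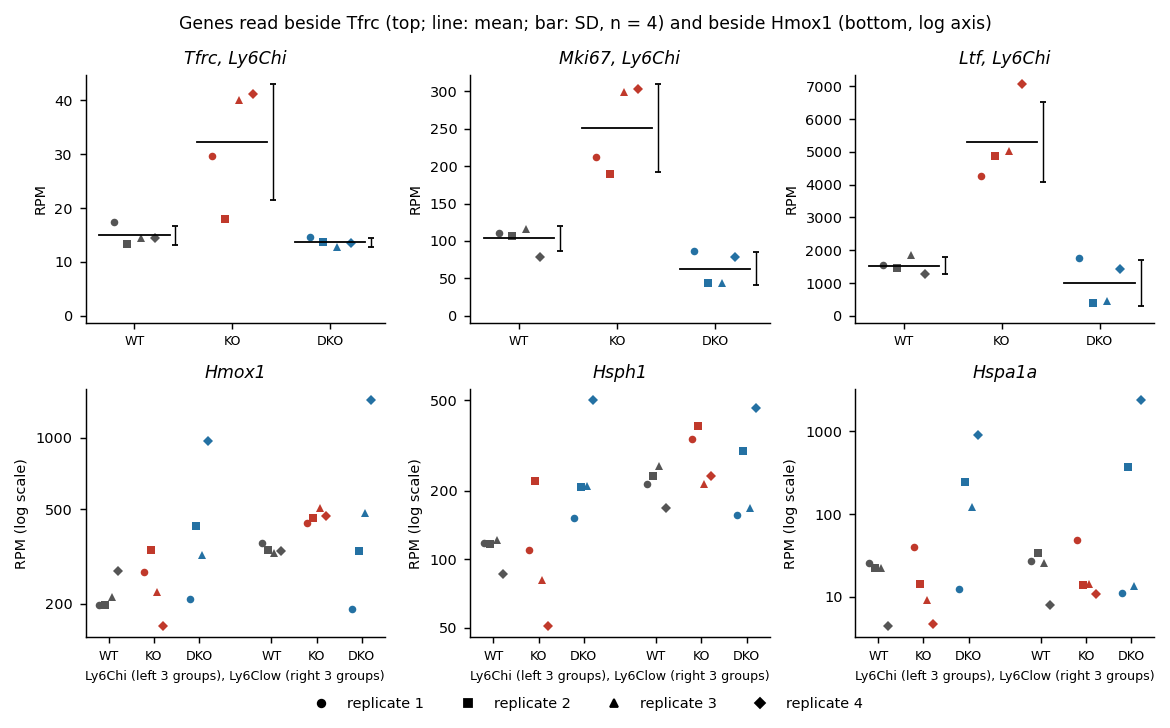
RPM in each library; top, Tfrc, the proliferation gene Mki67, and the granule gene Ltf in Ly6Chi cells (linear axis, mean as a line, SD as a bar, n = 4); bottom, Hmox1 and the heat shock genes Hsph1 and Hspa1a in all 6 groups (log axis). KO is Slc29a3-/- and DKO is Slc29a3-/- Tlr7-/-; the 4 KO libraries are the highest in each top panel, and Hmox1 at 971 and 1431 RPM in DKO replicate 4 stands with the highest values of both heat shock genes.

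The ferritin heavy chain could not be compared. Fth1, an abundant message in most cells, was at 0 in 19 of 24 libraries and at most 0.315 RPM (4 reads, Slc29a3-/- Ly6Clow replicate 3), so its amplicon reported close to nothing. The other 4 libraries with reads had 1 to 3. Over 9 comparisons between groups the lowest two-sided exact permutation P was 0.143, where 0.029 is the smallest that 4 against 4 libraries can give.

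Other genes of iron transport moved in Ly6Chi cells. Of 11 tested outside the members, 1 was higher and 4 were lower in Slc29a3-/- than in WT. Lcn2, a siderophore-binding protein that is also a neutrophil granule gene and stands in both lists, rose by 1.81, and Slc39a14 (-1.34), a zinc and iron importer and Tfr2 (-1.10), the transferrin sensor, were among those that fell. Against WT replicate 4 alone Lcn2 was at 1.96, Slc39a14 at -1.61, and Tfr2 at -0.26, and none passed. Against the double mutant, Lcn2 (2.59) and Slc25a37 (0.84), a mitochondrial iron importer, were higher and Steap3 (-0.63), an endosomal ferrireductase, was lower. Without double mutant replicates 2 and 3, which read both Xist and Ddx3y, Lcn2 was at 1.66 and stayed called, and Slc25a37 (0.57, adjusted P = 0.173) and Steap3 (-0.50, adjusted P = 0.111) did not. Of the iron sensors Aco1, Ireb2, and Fbxl5, limma called 0 between genotypes in both subsets, and 1 unadjusted P under 0.05 was found in the 6 comparisons, between Slc29a3-/- and the double mutant in Ly6Chi. Alas1, which starts heme synthesis in all cells, was the 1 called of 7 heme synthesis genes in Ly6Chi cells, at 82.0 ± 8.87 RPM in WT, 169.9 ± 48.2 in Slc29a3-/-, and 80.1 ± 10.03 in Slc29a3-/- Tlr7-/- (log2 change 1.00 against WT and 1.04 against the double mutant).

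Messages for transporters of phagosomal and endosomal iron were lower in Slc29a3-/- Ly6Chi cells, and the proteins and their transport were not measured. Whether the mice of this strain make a working NRAMP1 was not tested. The level of Slc11a1 therefore says nothing of iron transport in these cells, in any genotype or subset. Slc11a1, encoding NRAMP1, which pumps divalent metals out of the phagosome, read 555, 516, 576, and 529 RPM in WT Ly6Chi, 289, 334, 249, and 153 in Slc29a3-/-, and 487, 729, 472, and 454 in Slc29a3-/- Tlr7-/-. In Ly6Clow cells Slc11a1 read 1727, 1620.0, 1642, and 1438 RPM in WT, 976, 1075, 1046, and 1036 in Slc29a3-/-, and 1103, 1145, 1512, and 2019 in Slc29a3-/- Tlr7-/-. In both subsets every Slc29a3-/- library was below every library of the other genotypes. The change in Ly6Chi was -1.14 against WT (SE 0.21, adjusted P = 0.0017) and -1.09 against the double mutant (SE 0.21, adjusted P = 0.0024), and both held without any 1 library and without the libraries that read both Xist and Ddx3y (-0.93, adjusted P = 0.023, for the second). In Ly6Clow it was -0.63 against WT (SE 0.18, interval -1.01 to -0.26), just outside the threshold (adjusted P = 0.056), and -0.69 (adjusted P = 0.024) without WT Ly6Clow replicate 4. The double mutant differed from WT by -0.05 in Ly6Chi (interval -0.50 to 0.40) and by -0.19 in Ly6Clow (interval -0.57 to 0.18).

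Slc11a2, encoding DMT1, which passes iron from the endosome to the cytosol, read 53.3, 54.4, 63.0, and 48.2 RPM in WT Ly6Chi, 34.2, 40.3, 27.4, and 23.3 in Slc29a3-/-, and 62.9, 33.7, 53.2, and 28.9 in Slc29a3-/- Tlr7-/-. Its Ly6Clow values were 51.1, 58.1, 60.2, and 72.6 RPM in WT, 76.1, 82.2, 80.9, and 73.2 in Slc29a3-/-, and 63.5, 76.6, 51.0, and 32.4 in Slc29a3-/- Tlr7-/-. Slc29a3-/- libraries thus lay below all WT libraries in Ly6Chi cells and above all of them in Ly6Clow cells. The Ly6Chi change was -0.81 (SE 0.23, adjusted P = 0.019) and was lost without WT Ly6Chi replicate 3 (-0.74, adjusted P = 0.059) or Slc29a3-/- Ly6Chi replicate 3 (-0.76, adjusted P = 0.054) or 4 (-0.68, adjusted P = 0.061). The Ly6Clow change was 0.37 (interval -0.09 to 0.84, adjusted P = 0.364).

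The difference between the subsets was itself tested, in a fit of all 24 libraries. For Slc11a2 the change from WT to Slc29a3-/- was 1.18 higher in Ly6Clow than in Ly6Chi cells (SE 0.33, adjusted P = 0.025), the 1 call among 9 members, against 8.85% of all 11042 genes tested. The member median of this difference was 0.45 and that of all genes 0.15. The call was lost without WT Ly6Chi replicate 3 (1.11, adjusted P = 0.053), Slc29a3-/- Ly6Chi replicate 3 (1.13, 0.052) or 4 (1.05, 0.068), or WT Ly6Clow replicate 1 (1.11, 0.055). With the double mutant in the place of WT, the difference for Slc11a2 was 1.00 (interval 0.32 to 1.68, adjusted P = 0.058), and it was called without Slc29a3-/- Ly6Chi replicate 2 (1.13, 0.036), double mutant Ly6Chi replicate 2 (1.11, 0.040) or 4 (1.18, 0.024), or double mutant Ly6Clow replicate 1 (1.08, 0.045) or 2 (1.17, 0.024).

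Spic, the red pulp macrophage regulator, was the member raised in Slc29a3-/- Ly6Clow cells. It read 6.31, 4.02, 7.49, and 11.8 RPM in WT Ly6Chi, 8.28, 13.7, 14.2, and 2.70 in Slc29a3-/-, and 12.6, 12.2, 9.35, and 12.03 in Slc29a3-/- Tlr7-/-. Its Ly6Clow values were 12.02, 13.7, 8.78, and 14.3 RPM in WT, 22.0, 33.9, 38.7, and 41.7 in Slc29a3-/-, and 8.16, 8.97, 14.5, and 19.3 in Slc29a3-/- Tlr7-/-. The Ly6Chi groups overlapped, and the 4 Slc29a3-/- Ly6Clow libraries were above all 20 others. In Ly6Clow the rise was 1.39 against WT (SE 0.28, adjusted P = 0.011, 2.62-fold) and 1.39 against the double mutant (SE 0.28, adjusted P = 0.016). Against WT it was lost without WT Ly6Clow replicate 3 (1.25, adjusted P = 0.051) or Slc29a3-/- Ly6Clow replicate 4 (1.29, adjusted P = 0.051), and against the double mutant without Slc29a3-/- Ly6Clow replicate 2, 3, or 4 (1.38, 1.32, and 1.28, adjusted P 0.067, 0.074, and 0.087). The double mutant differed from WT by 0.00 (interval -0.60 to 0.60).

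For Spic the gap between Slc29a3-/- and the double mutant was 1.81 larger in Ly6Clow than in Ly6Chi cells (SE 0.50, adjusted P = 0.026), the 1 call among 9 members against 8.97% of all genes, with medians of 0.65 and 0.20. It was lost without Slc29a3-/- Ly6Chi replicate 4 (1.36, adjusted P = 0.060), the lowest Spic value of all, without Slc29a3-/- Ly6Clow replicate 3 (1.73, 0.054) or 4 (1.70, 0.060), and without the libraries that read both Xist and Ddx3y (1.77, 0.064). The same difference against WT was 1.16 (interval 0.12 to 2.20, adjusted P = 0.168).

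Vcam1 read 36.8, 33.3, 39.9, and 31.04 RPM in WT Ly6Chi, 29.5, 18.6, 46.7, and 59.5 in Slc29a3-/-, and 33.04, 12.7, 27.6, and 32.6 in Slc29a3-/- Tlr7-/-. In Ly6Clow cells Vcam1 read 49.0, 60.5, 50.1, and 46.9 RPM in WT, 28.7, 80.2, 72.4, and 147 in Slc29a3-/-, and 25.7, 31.5, 47.4, and 20.4 in Slc29a3-/- Tlr7-/-. The Slc29a3-/- Ly6Clow group had the widest range, with replicate 1 below every WT library and the other 3 above them. No genotype comparison passed. The nearest was Slc29a3-/- against the double mutant in Ly6Clow (1.22, interval 0.41 to 2.02, adjusted P = 0.126), which became 1.64 (adjusted P = 0.013) without Slc29a3-/- Ly6Clow replicate 1. That library was the only one of its group to read Ddx3y and not Xist.

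Some markers of red pulp macrophages and of red cell precursors rose with Spic in Ly6Clow cells, and others fell or were not called. Of 8 red pulp markers tested (10 on the list, none of them a member), 2 were higher and 1 was lower in Slc29a3-/- than in WT, namely Itgad (2.07), the CD11d integrin of red pulp macrophages, and Adgre1 (1.11), which encodes F4/80, and Mrc1 (-2.22). With WT replicate 4 alone for WT these were at 2.06, 0.55, and -1.85, and none passed. The call of Adgre1 was also lost without any 1 of 7 libraries. Against the double mutant 3 were higher, Cd5l (2.41), C1qb (1.57), and Itgad (1.47), and Mrc1 was lower (-1.44). Each of these 4 calls was lost without at least 2 of the 8 libraries one at a time, and that of C1qb also without double mutant replicate 2, which reads both Xist and Ddx3y (1.36, adjusted P = 0.053). Cd5l, a secreted protein of red pulp macrophages, read 34.3, 84.6, 88.3, and 114 RPM in the 4 Slc29a3-/- libraries against 16.4 to 41.5 in WT. Replicate 1, the only Slc29a3-/- library here to read Ddx3y and not Xist, was the lowest, as for Spic, Vcam1, and Slc40a1. The summed red pulp list was 659 to 709 RPM in WT, 880 to 1130 in Slc29a3-/-, and 352 to 705 in Slc29a3-/- Tlr7-/-. In Ly6Chi cells, by contrast, 6 of 8 were lower and none was higher in Slc29a3-/- than in WT, led by Cd5l (-2.79), C1qb (-1.99), and Mertk (-1.81), with sums of 211 to 252 RPM in WT, 66.7 to 140.2 in Slc29a3-/-, and 155 to 247 in the double mutant.

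Erythroid transcripts were present although TER-119+ cells had been depleted. Slc4a1, the anion exchanger of the red cell membrane, read 45.7, 53.6, 55.9, and 63.9 RPM in Slc29a3-/- Ly6Clow against 0.280 to 3.52 in WT and 1.43 to 8.13 in the double mutant. Alas2, which starts heme synthesis in erythroblasts, read 16.8 to 23.0 RPM against 0 to 3.22 and 0 to 3.95. Of 5 erythroid markers tested, these 2 rose against WT (4.76 and 3.71) and against the double mutant (3.80 and 3.64), and 0 fell. Against WT replicate 4 alone, which had the most Alas2 of the WT libraries (3.22 RPM), Slc4a1 was at 3.61 (adjusted P = 0.049) and Alas2 at 2.29 (adjusted P = 0.381). The summed list was 40.5 to 100.3 RPM in WT, 88.4 to 121 in Slc29a3-/-, and 14.1 to 55.2 in Slc29a3-/- Tlr7-/-, so that WT and Slc29a3-/- overlapped. Car1 made up most of each WT sum, and every WT library read more Car1 than every Slc29a3-/- library. The overlap came from WT replicate 2 alone, where Car1 read 94.7 RPM. The globin genes of the list (Hba-a1, Hba-a2, Hbb-bs, and Hbb-bt) were not found under these names in the expression table, so globin was not analysed. The part of red cell precursors and of red pulp macrophages in the level of Spic was not tested.

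**Figure D4:**
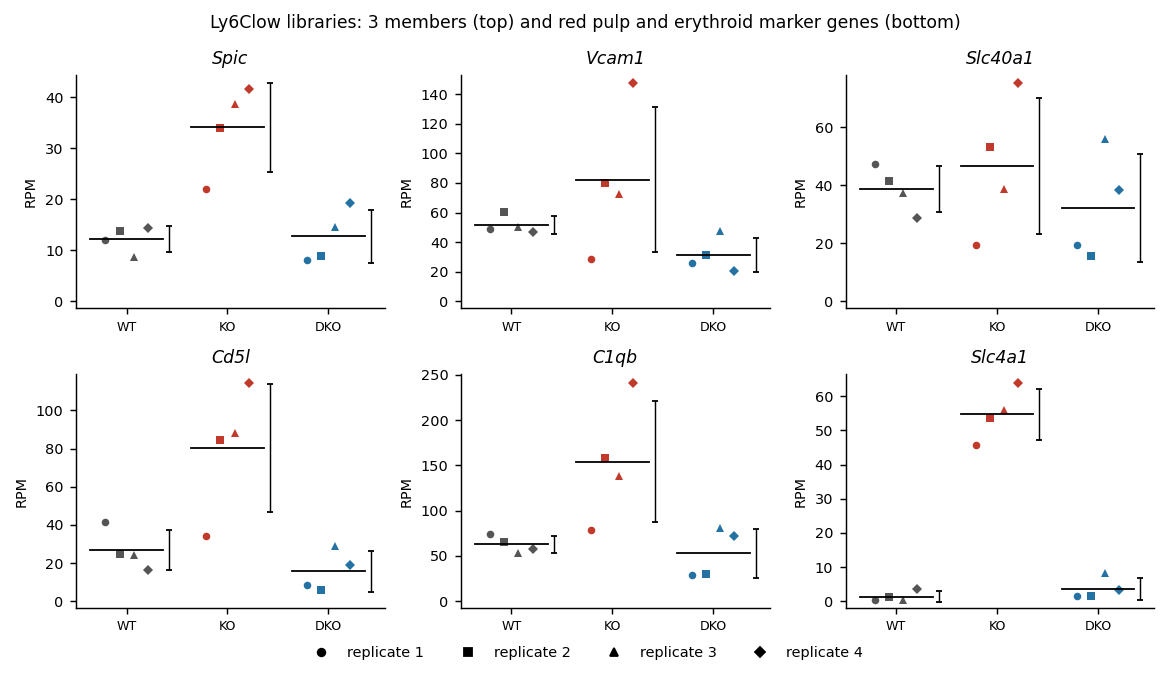
RPM (linear axis) of Spic, Vcam1, and Slc40a1 (top) and of the red pulp markers Cd5l and C1qb and the erythroid marker Slc4a1 (bottom) in the 12 Ly6Clow libraries, with the mean as a line and the SD (n = 4) as a bar; KO is Slc29a3-/- and DKO is Slc29a3-/- Tlr7-/-. KO replicate 1 (circle), the only KO library here to read Ddx3y and not Xist, is the lowest KO library in all 6 panels. For Slc4a1 the KO libraries at 45.7 to 63.9 RPM lie above the other 8. Cd5l and C1qb were called in KO against DKO and not against WT.

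Among the other iron genes of Ly6Clow cells, 2 of 12 tested were called in Slc29a3-/- against WT. Cp, encoding ceruloplasmin, the ferroxidase that works with ferroportin, read 22.2, 16.6, 30.7, and 31.6 RPM in Slc29a3-/-, 1.61, 1.92, 2.39, and 2.15 in WT, and 8.40, 6.59, 1.18, and 0.639 in Slc29a3-/- Tlr7-/-. The Slc29a3-/- libraries did not overlap with the others, and Cp was higher by 3.08 than in WT (adjusted P = 0.0019) and by 2.67 than in the double mutant (adjusted P = 0.0065). Hfe, which binds the transferrin receptor, rose from 719.8 ± 87.5 RPM in WT to 1296 ± 183 (SD, n = 4, log2 change 0.85, adjusted P = 0.013). Against WT replicate 4 alone Cp was at 3.02 and Hfe at 0.64, and neither passed. In the double mutant against WT, Lcn2 (-3.90) and Mcoln1 (-1.29), a lysosomal channel that releases iron, were lower, and 7 of 7 neutrophil markers tested were lower. These rested on WT replicates 1 to 3. Lcn2 read 38.8 to 71.0 RPM in them, 2.30 in WT replicate 4, and 0.158 to 1.86 in the double mutant, and the neutrophil sum was 1045 to 2378 RPM, 63.6, and 2.78 to 46.8. Against WT replicate 4 alone Lcn2 was at -0.98 and Mcoln1 at -0.57, and 0 of the 7 markers passed (median -1.45 in place of -4.37). Of heme synthesis genes, Alas2 was the 1 called of 8 in Slc29a3-/- Ly6Clow cells.

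Other cell types were read by their marker lists. All 6 dendritic cell markers were lower in Slc29a3-/- Ly6Chi cells than in WT (sums 13.5 to 19.3 against 67.3 to 127 RPM) and than in the double mutant (68.9 to 86.8 RPM), and in Ly6Clow cells 4 of 5 tested were lower than in WT (11.3 to 21.8 against 32.7 to 54.5 RPM). Of the B and T cell markers 2 were tested in Ly6Chi cells, Cd3e and Cd3d, of the T cell receptor complex, and both were lower in Slc29a3-/- than in WT (-3.18 and -1.56), as was Cd3e in the double mutant (-2.98). Their list summed to 47.5 to 53.9 RPM in WT Ly6Chi replicates 1 to 3, 7.80 in WT replicate 4, 1.98 to 6.01 in Slc29a3-/-, and 0.561 to 14.4 in the double mutant, and to at most 7.82 RPM in Ly6Clow. Against WT replicate 4 alone Cd3e was at -1.25 and Cd3d at -0.21 in Slc29a3-/-, neither called, and the call of Cd3d was also lost without any 1 of 5 libraries and that of Cd3e in the double mutant without any 1 of 6. Endothelial and stromal markers summed to at most 65.1 RPM in any library. With Cd163, Slc11a1, and Slc11a2 lower in the same Ly6Chi libraries, the part of dendritic cells and of T cells was not tested.

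Values with WT as reference rest on 2 barcode sets, which are also 2 classes by Xist and Ddx3y. When WT replicate 4, the one WT library under a later barcode in each subset, alone stood for WT, and was taken to vary like the other groups, every called change of a member kept its direction and none passed. In Ly6Chi the changes of Slc29a3-/- were then -1.80 for Cd163 (adjusted P = 0.108), -1.10 for Slc11a1 (0.165), -0.64 for Slc11a2 (0.477), and 1.03 for Tfrc (0.22). In Ly6Clow they were 1.16 for Spic (0.516) and -3.14 for Cd163 (0.382). For the double mutant Cd163 changed by -1.27 in Ly6Chi (0.999) and -2.01 in Ly6Clow (0.452), and the difference of Slc11a2 between the subsets was 0.74 (0.786).

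Ly6Clow cells held more Slc11a1 than Ly6Chi cells in every genotype. The subset labels fitted the gene that marks the sort, since Fcgr4, which encodes FcγRIV, was 33.6 ± 6.14 RPM in WT Ly6Chi and 744 ± 95.3 in WT Ly6Clow cells. In WT, Slc11a1 was the 1 of 9 members called, against 29.6% of all 11042 genes tested, and it was higher in Ly6Clow by 1.56 (SE 0.20, adjusted P = 1.4e-06, 2.95-fold). In Slc29a3-/- 5 members were higher and 1 was lower in Ly6Clow, against 41.2% of all genes, and in Slc29a3-/- Tlr7-/- 2 were higher and 1 was lower, against 33.3%. Medians of the members were 0.46, 0.98, and 0.25 in WT, Slc29a3-/-, and the double mutant, and those of all genes -0.07, 0.10, and -0.12.

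In Slc29a3-/- mice the Ly6Clow cells had higher Slc11a1 (2.06, SE 0.20, adjusted P = 7.1e-09), Spic (1.87, SE 0.36, 1.4e-04), Slc11a2 (1.32, SE 0.23, 5.8e-05), Blvrb (1.02, SE 0.24, 0.0013), and Vcam1 (0.98, SE 0.38, 0.040) and lower Tfrc (-1.05, SE 0.25, 0.0016) than the Ly6Chi cells. The Vcam1 call was lost without Slc29a3-/- Ly6Chi replicate 1 or 2 (0.90 and 0.69, adjusted P 0.092 and 0.168), without Ly6Clow replicate 2, 3, or 4 (0.92, 0.97, and 0.63, adjusted P 0.087, 0.074, and 0.197), and with scaling by RLE (0.88, adjusted P = 0.068). In the double mutant Slc11a1 (1.41, adjusted P = 4.9e-06) and Blvrb (0.72, adjusted P = 0.023) were higher and Tfrc (-0.88, adjusted P = 0.0087) was lower. The Blvrb call was lost without double mutant Ly6Chi replicate 1 (0.60, 0.082) or Ly6Clow replicate 3 (0.63, 0.073) or 4 (0.53, 0.097). When WT replicate 4 alone stood for WT, the value of Slc11a1 was 1.44 (adjusted P = 0.078). Hmox1 was higher in Ly6Clow by 0.63 in WT (interval -0.22 to 1.49) and 0.96 in Slc29a3-/- (interval 0.10 to 1.81, adjusted P = 0.068), with no overlap between the subsets in either genotype. With replicate number as a block both were called (adjusted P = 0.020 and 7.9e-04). In WT the deviations of all 4 same-numbered pairs correlated positively. WT replicate 4 lay apart in both subsets, which can give this without any pairing by number.

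**Figure D5:**
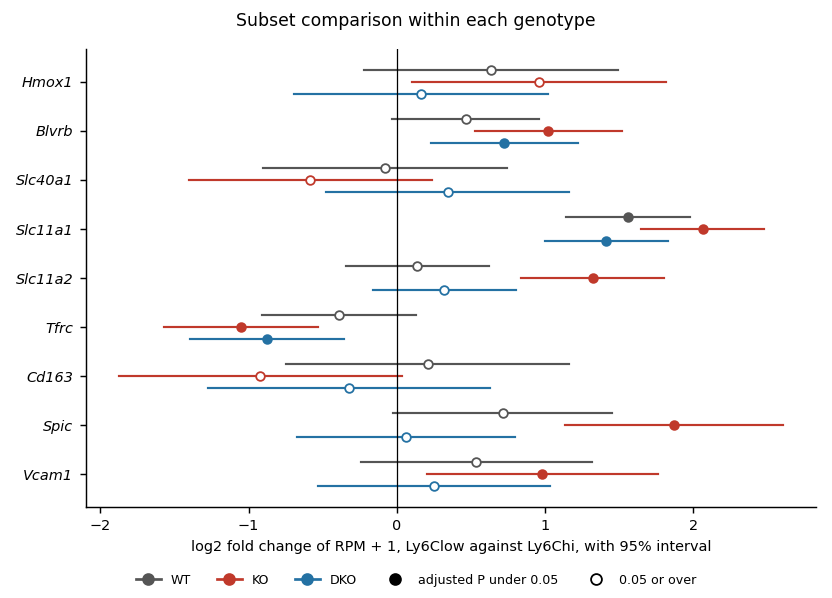
Log2 fold change of RPM + 1 of each tested member in Ly6Clow against Ly6Chi cells (horizontal axis, with 95% interval) in each genotype; KO is Slc29a3-/-, DKO is Slc29a3-/- Tlr7-/-, and filled points passed an adjusted P of 0.05. Slc11a1 lies at 1.41 to 2.06 in all 3 genotypes, and Spic at 1.87 in KO and 0.06 in DKO.

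All 10 neutrophil markers and all 6 proliferation genes tested were lower in Ly6Clow than in Ly6Chi cells in each genotype, with Mki67 at -3.67 in WT, -4.80 in Slc29a3-/-, and -3.81 in the double mutant. Their part in the lower Tfrc of Ly6Clow cells was not tested. Of the pathway genes outside the members, Hfe was higher in Ly6Clow cells in all genotypes (2.49 in WT, 3.44 in Slc29a3-/-, and 2.62 in the double mutant), as was Cp (1.54, 4.46, and 1.92), and Alas1 (-0.99, -2.52, and -1.56) and Hp (-1.51, -2.02, and -2.36) were lower.

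Ordered by mean level over the 6 groups, most neighbours overlapped. How often other genes show gaps between neighbours was not counted, so the gaps are a description only. For Hmox1 the order from lowest to highest was WT Ly6Chi, Slc29a3-/- Ly6Chi, WT Ly6Clow, Slc29a3-/- Ly6Clow, double mutant Ly6Chi, and double mutant Ly6Clow (221 to 609 RPM), and the one pair of neighbours without overlap was WT Ly6Clow and Slc29a3-/- Ly6Clow. For Slc40a1 (double mutant Ly6Chi lowest at 25.5 RPM, Slc29a3-/- Ly6Chi highest at 64.7) and Vcam1 (double mutant Ly6Chi lowest at 26.5, Slc29a3-/- Ly6Clow highest at 82.2) all neighbours overlapped. Spic separated only Slc29a3-/- Ly6Clow, at 34.1 RPM, from the group next to it, and Tfrc only Slc29a3-/- Ly6Chi, at 32.2 RPM. Cd163 was lowest in Slc29a3-/- Ly6Clow, at 0.953 RPM, and its next neighbour, Slc29a3-/- Ly6Chi at 2.73 RPM, came within less than 1 read of it (1.341 and 1.348 RPM in the nearest libraries), so the 2 cannot be called separate. Slc11a1 fell into the most separate steps, with gaps above Slc29a3-/- Ly6Chi (256 RPM), above WT Ly6Chi (544), and above Slc29a3-/- Ly6Clow (1033). Slc11a2 had a gap only below Slc29a3-/- Ly6Clow (78.1 RPM), and Blvrb only between WT Ly6Chi (24.8) and WT Ly6Clow (34.8).

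The genes whose pattern over the 24 libraries was most like that of each member are given as a description, because the libraries share 6 groups and 7491 genes were compared (7492 for Cd163). Slc11a1 was closest to Cyp4f18 (Pearson's r = 0.981), Abca1, a cholesterol exporter (0.961), and Ifngr1, an interferon-γ receptor chain (0.961). Blvrb was closest to Serinc1 (0.925), Il17ra (0.912), and Klhl2 (0.908), Slc11a2 to Akap13 (0.916), BC005624 (0.905), and Nrip1 (0.889), and Tfrc to Tmx4 (0.904), Hn1l (0.895), and Whsc1 (0.884). Hmox1 was closest to Rapgef2 (0.844), Med7 (0.832), and the heat shock gene Hsph1 (0.812). Spic was closest to Nfe2l1 (0.841), Acp2, a lysosomal phosphatase (0.833), and Slc2a6, a lysosomal hexose transporter (0.813). Cd163 was closest to Runx1 (0.766), Mrc1 (0.765), and Pus1 (0.764). Slc40a1 (Igf2r 0.712, Asf1a 0.698, and Pold3 0.680) and Vcam1 (Hebp1, a heme-binding protein, 0.709, Vamp5 0.701, and Cd81 0.692) had the weakest matches. Within groups, that is after the group means were taken out, r was 0.897 for Slc11a1 with Cyp4f18, 0.738 for Spic with Nfe2l1, and 0.279 for Cd163 with Mrc1.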

How the data were processed

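The authors deposited 1 table of RPM for 23930 amplicons (1 per gene) in 24 libraries, made with the Ion AmpliSeq Transcriptome Mouse kit from RNA with a RIN over 7.3. The study's methods name Cutadapt, STAR on mm10, HTSeq, and DESeq2, and the step that wrote the table is not given in the sources used here. A value of 0 is written as 0.0001 and was set back, and 27 gene names turned into dates were repaired. RPM was scaled by the library total alone. Groups came from the sample titles, which do not say whether equal replicate numbers mark 1 mouse. Deviations from group means correlated at 0.259 to 0.619 in the 4 same-numbered WT pairs of the subsets and at -0.456 to 0.338 in the 8 mutant pairs.

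Values were transformed to log2(RPM + 1), filtered at 1 RPM in 4 libraries of the fit, and fitted with limma 3.58.1 (lmFit, eBayes with trend) in R 4.3.3. Genotypes were compared within a subset (12 libraries), and subsets and differences between them in all 24. P-values were adjusted by Benjamini-Hochberg over all genes and called under 0.05. The fit was tested on simulated data. The members, lists, and tests were chosen with earlier results of these data known. Named were all 10 members, up to 3 called genes of each list with the largest change, defining markers, and the targeted genes, and for likeness the 3 genes of at least 10 RPM with the highest Pearson's r. A gene named by the rule in 1 comparison is also given in others. Any other gene is marked as named after its values were seen. One item of the erythroid list is not reported here and was left out of its counts and sums. Alternatives were RLE scaling, a pseudocount of 0.1, no filter, a filter at a mean of 10 RPM, replicate number as a block, WT replicate 4 alone for WT, each library left out, and, added after seeing the data, the fit without libraries reading both Xist and Ddx3y. Positions and UTRs came from GENCODE vM21 (mm10). Figures were drawn with matplotlib 3.10.9 in Python 3.11.15. Depth was inferred from the step between low values, so intervals in RPM cover neither amplification nor sorting.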

Additional observations from a re-analysis of the deposited data

Results flagged for a closer look

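In 3 of 56 groups of 4 libraries tested, 1 library stood apart from the others by Dixon's criterion, which chance alone would give in about 1 in 20 groups. Spic was lowest in Slc29a3-/- Tlr7-/- Ly6Chi replicate 3, at 9.35 RPM, where the others read 12.03 to 12.6. Cd163 was at 0 in Slc29a3-/- Ly6Clow replicate 1, where the others read 1.19 to 1.34 RPM. Slc11a1 was highest in Slc29a3-/- Tlr7-/- Ly6Chi replicate 2, at 729 RPM, where the others read 454 to 487. That library also read both Xist and Ddx3y.

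A genotype effect differed between the subsets for 2 members, by the interaction term of the fit over all 24 libraries. That was 1 of 9 members in the difference against WT and 1 of 9 in that against the double mutant, where 8.85% and 8.97% of all genes were called. Both calls were lost with no filter and when certain single libraries were left out. For Slc11a2 the change from WT to Slc29a3-/- was 1.18 higher on the log2 scale in Ly6Clow than in Ly6Chi cells, and 4 of 4 Slc29a3-/- libraries lay below WT in Ly6Chi and above WT in Ly6Clow. For Spic the change from Slc29a3-/- Tlr7-/- to Slc29a3-/- was 1.81 higher in Ly6Clow, where 4 of 4 Slc29a3-/- libraries lay above the double mutant.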

How the results depend on the processing

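No called member changed direction under any alternative. All 502 values recomputed for the 35 followed results, those called at least once, kept their sign, of which 426 also kept their side of the threshold, 58 lost it, and 18 gained it. The main moves in the members called were these. When WT replicate 4 alone stood for WT, the loss of calls in the comparisons with WT cannot be told apart from the loss of libraries. In the double mutant against WT the count fell from 1 to 0 with no filter, a mean of at least 10 RPM, or a pseudocount of 0.1 in both subsets, with the replicate block or without the libraries reading both Xist and Ddx3y in Ly6Chi, and with RLE scaling in Ly6Clow. Over all genes the calls in these fits went, in that order, from 154 to 91, 35, 44, 43, and 1 in Ly6Chi. In Ly6Clow they went from 915 to 618, 656, 764, and 997. A mean of at least 10 RPM removed Cd163 from the test, and it or a pseudocount of 0.1 took Slc29a3-/- against WT in Ly6Clow from 2 to 1. With no filter both differences between subsets fell from 1 to 0, and all genes called from 977 to 784 and from 991 to 722. Vcam1 lost its call between the subsets of Slc29a3-/- with RLE scaling (6 to 5 members) and with no filter, where Fth1, at 0.315 RPM or less, was called in its place. All genes called there went from 4550 to 4576 and 4352. Without the libraries reading both Xist and Ddx3y, Slc29a3-/- against the double mutant rose from 1 to 2 in Ly6Clow and fell from 3 to 2 in Ly6Chi (Slc40a1, adjusted P = 0.059), and in the difference between subsets against the double mutant Slc11a2 was called in place of Spic. All genes called went from 199 to 434, from 2150 to 1287, and from 991 to 1033 in these comparisons. Leaving out 1 library gave 3 to 4, 0 to 2, and 3 to 4 calls in the Ly6Chi genotype comparisons, 1 to 3, 0 to 1, and 0 to 2 in Ly6Clow, 1 to 1, 5 to 6, and 2 to 3 between the subsets of WT, Slc29a3-/-, and the double mutant, and 0 to 1 and 0 to 2 for the differences against WT and against the double mutant.

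In WT all 4 same-numbered pairs of the subsets had correlations of deviations over 0.1 (0.259 to 0.619). Not every pair of the mutants reached that. WT replicate 4 lay apart in both subsets. Its smallest distance from WT replicates 1 to 3, on log2 values, was 65.6 in Ly6Chi and 69.2 in Ly6Clow. Among those replicates the largest distance was 25.6 and 46.1. WT replicate 4 thus shifts the deviations of the others alike, so these correlations do not show that equal numbers mark 1 mouse. Of all 12 pairs with the same genotype and number in both subsets, 8 had a correlation of deviations over 0.1 (-0.456 to 0.619), 6 matched best with their own number, and 11 shared the class by Xist and Ddx3y. Across genotypes 4 of 24 did. With replicate number as a block, Hmox1 was called between the subsets in WT (0.63, adjusted P = 0.020, 2 members in place of 1) and Slc29a3-/- (0.96, adjusted P = 7.9e-04), as were Cd163 between the subsets in Slc29a3-/- (-0.92, adjusted P = 0.045) and Slc11a2 for the difference against the double mutant (1.00, adjusted P = 0.037, 2 members in place of 1). All genes called went from 3263 to 3267, from 4550 to 4557, and from 991 to 962 in these fits. In these fits of both subsets the block was the number within a genotype. Within a subset it tied equal numbers across genotypes, which are different mice. There it ended the call of Cd163 in the double mutant against WT in Ly6Chi (adjusted P = 0.063), from which nothing on pairing can be drawn. The block changed no other call. RLE scaling moved the median of all genes by 0.111 in Slc29a3-/- against WT Ly6Chi and by -0.153 and -0.183 in the 2 differences between subsets. With it the share of called genes that were higher went from 36.4 to 50.4%, 21.4 to 39%, and 49.3 to 62.8% in the Ly6Chi genotype comparisons, from 28.2 to 51.2% in the double mutant against WT in Ly6Clow, from 35.5 to 46% between its subsets, and from 53.3 to 37.3% and 49.4 to 28.3% in the 2 differences. A planned count test on recovered reads was not run, because the table as deposited writes 0 as 0.0001 and failed a check for whole reads. With 0 set back, 100% of values under 5 RPM lay within 0.1 read of a whole number in every library. The obstacle was thus the way 0 is written, and the read counts given here rest on the values set back. Depth limits Cd163, which lies near the level of a few reads in some libraries.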
